A study of Mus musculus with 16 samples.

Results

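Glycolysis is controlled at the hexokinase, 6-phosphofructokinase and pyruvate kinase steps, and 8 genes of this control layer (Hk1, Hk2, Pfkl, Pfkm, Pfkfb1, Pfkfb3, Pklr and Pkm) were followed through 8 mouse tissues in the fed and the fasting state. The genes were chosen by symbol, and all 8 were found among the 55385 genes of the count table. Male C57BL/6 mice, acquired at 12 weeks of age, had food throughout or were fasted for 24 h before sacrifice. Heart, lung, kidney, spleen, liver, muscle and the white and brown adipose depots were taken, and the tissue of the 3 mice of a treatment was pooled before RNA extraction. Each tissue and treatment gave 1 strand-specific RNA-Seq library, 16 in all, so that no value below carries an error between animals, and the 8 tissues share the same 2 pools of mice. The comparison of the fasting with the fed library asks how each tissue sets its glycolytic isoforms when food is withdrawn.

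The library totals lay between 14245178 and 36069968 counts, and 3 counts, the floor used here, corresponded to 0.0832 to 0.211 CPM (counts scaled to a library total of 1000000). In each tissue both libraries had a higher summed level of its own cell markers than any library of another tissue. Several libraries also held RNA of other cell types in unequal amounts, and the main such differences are given beside the results they touch. CPM depend on what else is in a library. TMM factors, which correct for this, ran from 0.534 in fasting muscle to 1.51 in fed spleen, so levels in muscle and liver are higher, and in spleen and lung lower, on that scale. Within a tissue, TMM scaling moved the log2 fold change by 0.12 in liver and by -0.11 in white adipose, and by 0.08 or less in size elsewhere.

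Hexokinases phosphorylate glucose on entry into the cell. Phosphofructokinase then commits it to glycolysis, under the control of fructose-2,6-bisphosphate, which the bifunctional PFKFB enzymes both make and break down. Pyruvate kinase closes the pathway. Each step is covered by several genes with different kinetics: Hk1 encodes a widely expressed hexokinase, Hk2 the insulin-responsive hexokinase of muscle and fat, Pfkm and Pfkl the muscle and liver types of phosphofructokinase, Pfkfb1 and Pfkfb3 bifunctional enzymes known from liver and muscle and from proliferating cells and fat, Pklr the liver and red cell pyruvate kinase and Pkm its muscle and general counterpart. During a fast the liver turns from using glucose to making it.

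Of the 64 pairs of gene and tissue, 60 reached 1 CPM in at least 1 of their 2 libraries. By Fisher's exact test (two-sided, unadjusted p under 0.01) with a log2 fold change over 0.5 in size, 22 pairs were called, 8 higher and 14 lower in the fasting library. This test compares 2 libraries and not the conditions. Brown adipose had the most lower calls, 4 of 7 genes at 1 CPM (Hk1, Pfkl, Pfkm and Pkm), where 12.2% of all genes tested in that tissue were called lower and 8.68% higher. In muscle 3 genes were called lower (Hk1, Hk2 and Pfkl, against 16.4% of all genes) and Pfkfb3 higher (7.80% of all genes). In heart Hk1 and Hk2 were lower (9.65%) and Pfkfb1 and Pfkfb3 higher (7.01%). In liver Pklr was lower (15.8%) and Pfkfb1 higher (7.34%), and in white adipose Hk2 and Pfkfb1 were lower (9.23%) and Pklr higher (19.8%). In spleen Hk2 and Pfkfb1 were lower (2.33%) and none higher (3.62%). In kidney Pklr was higher (4.48%) and none lower (6.23%), and in lung Pfkfb1 and Pfkfb3 were higher (4.23%) and none lower (10.1%). Over those of the 8 at 1 CPM, the log2 fold change had a median of -0.58 in brown adipose beside -0.03 over all genes there, and -0.38 in heart beside -0.07. In the other 6 tissues it lay between -0.28 in white adipose (all genes 0.07) and -0.03 in kidney (all genes -0.06).

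**Figure D1:**
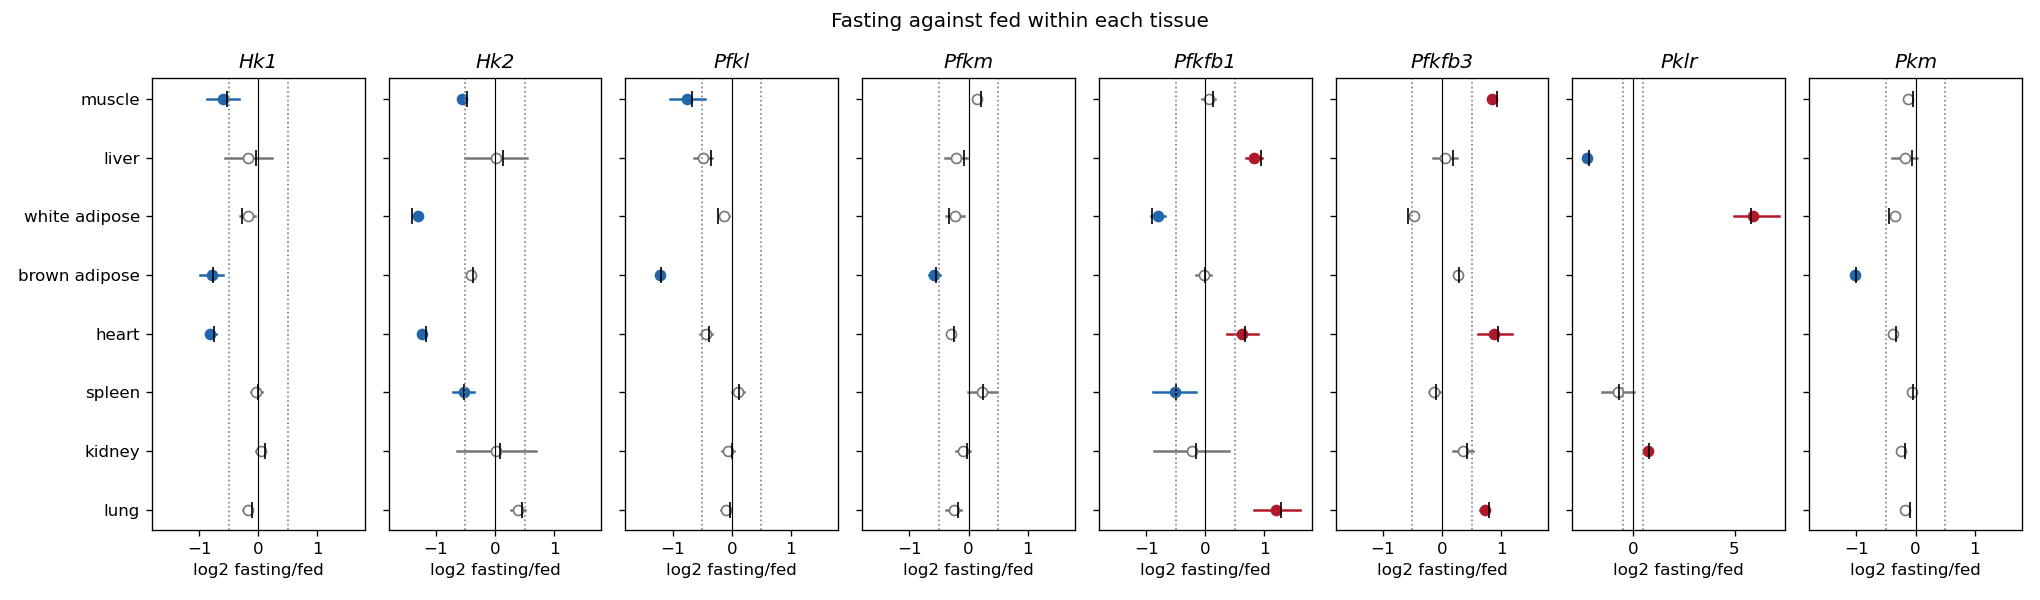
Log2 fold change of CPM, fasting over fed, of the 8 genes (1 panel each) in the 8 tissues. Points are CPM on library totals, filled red or blue where called higher or lower and open where not called, bars are 95% counting intervals, black ticks the TMM-scaled values and dotted lines 0.5 in size; the Pklr panel has a wider axis, on which white adipose stands at 5.93 and liver at -2.30, and pairs under 1 CPM are not drawn.

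Of the 2 hexokinase members, Hk1 and Hk2 led in different tissues. Hk2 (ENSMUSG00000000628.10, GRCm38 chr6:82725025-82774454, minus strand) led in muscle, heart and both adipose tissues, and Hk1 (ENSMUSG00000037012.18, chr10:62268855-62379908, minus strand) in kidney and lung. Shares were taken on the scale of CPM per kb of the gene length in the count table. This length need not be that of the transcripts expressed, and comparisons between genes depend on it (Pfkl 6675 bases, Pfkm 3340). Hk2 made up 97.6% of the summed level of 4 hexokinase genes (Hk1, Hk2, Hk3 and Hkdc1) in fed muscle. It held 95.1% in fed brown adipose, 79.1% in fed white adipose and 77.8% in fed heart. Hk1 held 93.2% in fed kidney and 50.9% in fed lung. Counting intervals (95%, Wilson, carried over to this scale) spanned at most 9.96 percentage points for any of the 8 genes. In fed spleen Hk3 (40.0%) and Hk1 (39.0%) stood side by side, and Hk1 led by counts without the length. In liver, where all 4 were low, Hk3 had the largest share of them in both libraries (47.7% fasting, higher when fed).

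**Figure D2:**
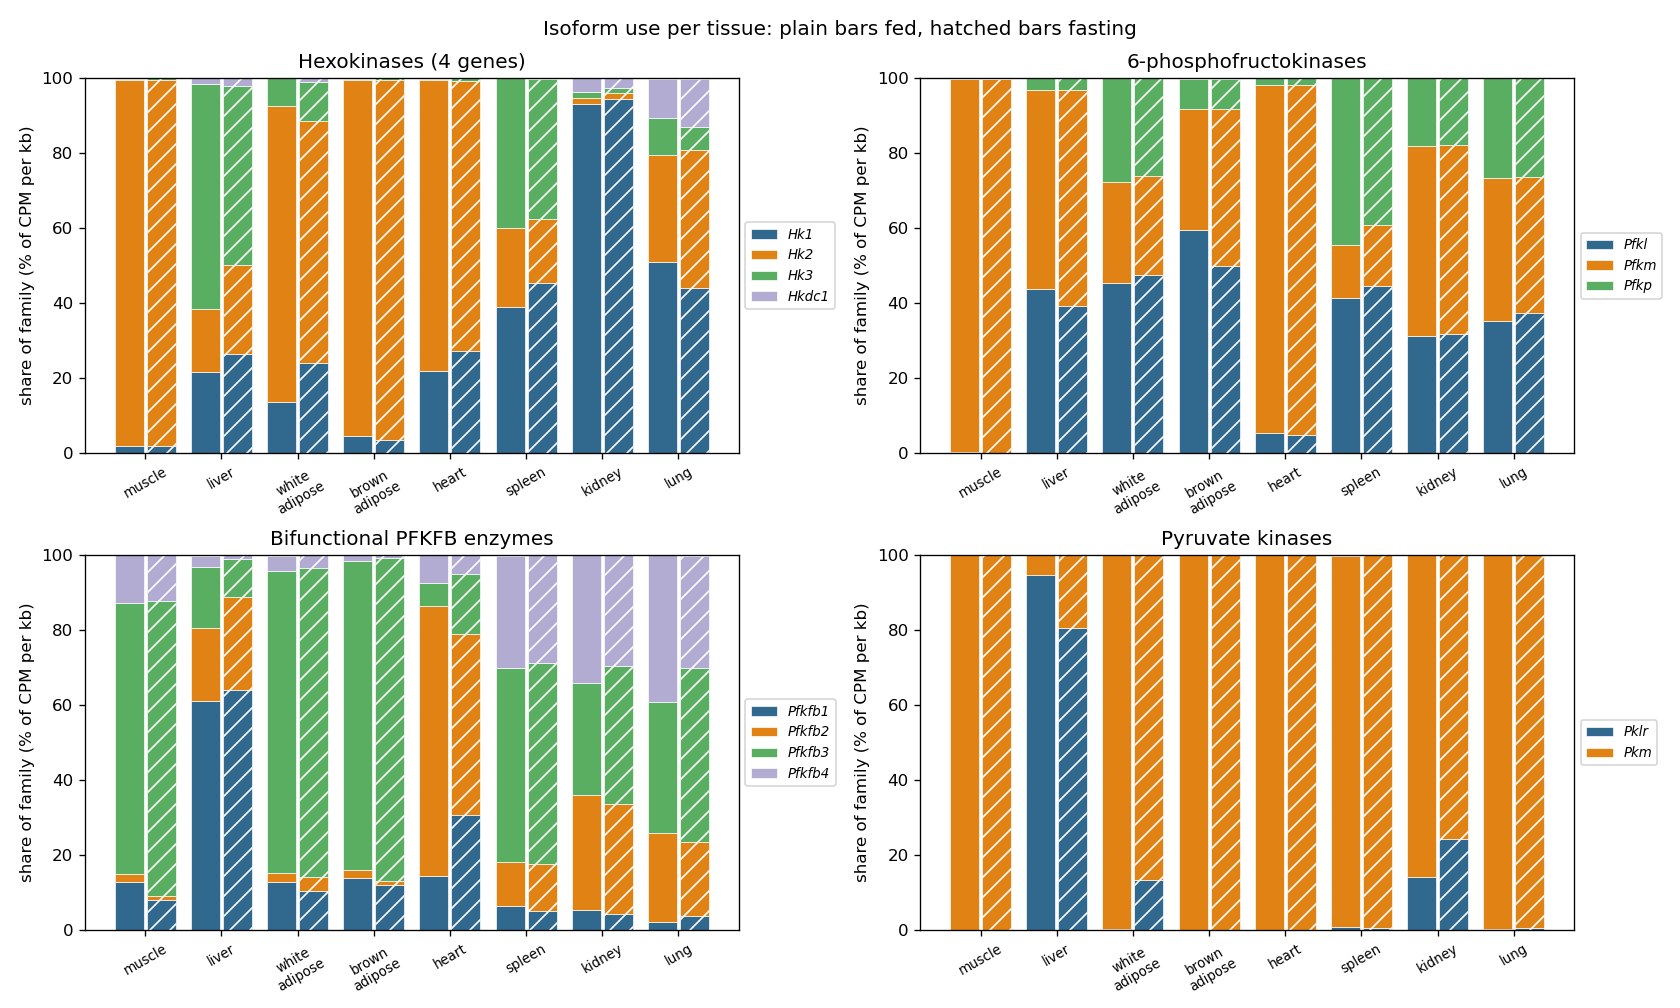
Share of each gene in its enzyme family, in percent of the summed CPM per kb, for each tissue with fed (plain bars) beside fasting (hatched bars). The 4 panels show hexokinases (the 4 genes Hk1, Hk2, Hk3 and Hkdc1), phosphofructokinases, bifunctional enzymes and pyruvate kinases; Pklr holds 94.8% of pyruvate kinase in fed liver and 80.7% in fasting liver, and Pkm leads in the other 7 tissues.

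Hk2 was lower in the fasting library of the tissues with the highest Hk2 levels, with the sharpest differences in white adipose and heart. From fed to fasting it went from 192 to 78.0 CPM in white adipose (log2 fold change -1.30, 95% counting interval -1.38 to -1.23, Fisher's exact p = 1.28e-277) and from 490.2 to 209 in heart (-1.23, interval -1.29 to -1.17). Smaller called differences were seen in muscle, from 373 to 253 CPM (-0.56, -0.48 with TMM scaling, which ends the call), and in spleen, from 26.3 to 18.2 (-0.53). Brown adipose, the tissue with the highest Hk2 level on library totals, went from 571 to 434 (-0.40), and lung from 32.2 to 42.1 (0.39), neither past the threshold. Liver (2.69 and 2.72 CPM) and kidney (1.65 and 1.67) had little Hk2 in either state, and their counting intervals of -0.50 to 0.54 and -0.65 to 0.69 leave smaller differences undetectable. In spleen the fed library held pancreatic acinar RNA (6 of 6 markers lower in the fasting library, summed level 371 to 11.5 CPM, Pnlip 124 to 0.0719 and Cela1 86.0 to 11.1) and the fasting library more erythroid RNA (5 of 5 higher, 3422 to 8143 CPM, Hbb-bs 2075 to 4947 and Hba-a1 709 to 1680.4). The part of these in the spleen values was not tested. In bulk tissue, fewer cells of a type and less RNA per cell cannot be told apart.

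Hk1 was called lower in heart, brown adipose and muscle and differed little in the 5 other tissues. Its CPM went from 196 to 112 in heart (-0.81, interval -0.89 to -0.72), from 37.6 to 21.8 in brown adipose (-0.79, interval -0.99 to -0.59) and from 10.3 to 6.85 in muscle (-0.59, interval -0.86 to -0.32). In spleen (69.9 and 68.7), kidney (137 and 140.2), lung (81.6 and 71.9), white adipose (47.1 and 41.7) and liver (4.86 and 4.33) the fold changes lay between -0.18 and 0.04. Heart and kidney were thus the highest tissues for Hk1, with overlapping pairs of values, and liver the lowest. With both hexokinases lower in heart, the share of Hk2 there went from 77.8% to 72.2%. In white adipose Hk2 was called lower, and Hk1 was slightly lower without a call (-0.18, interval -0.30 to -0.05). The Hk2 share there went from 79.1% to 64.5% while that of Hk1 went from 13.6% to 24.1%. In muscle, where Hk1, Hk2 and Pfkl were lower, 4 of 5 adipocyte markers were lower too (Adipoq 16.1 to 6.79 CPM, Plin1 11.5 to 3.33), with Fabp4 at 109.6 and 132 and a sum of 197 and 172 CPM, beside 19356 and 16264 in white adipose. Their part in the muscle values was not tested.

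In liver the summed level went from 2.66 to 1.92 CPM per kb for the 4 hexokinase genes and from 12.6 to 10.1 for the phosphofructokinases. It went from 65.8 to 15.7 for the pyruvate kinases and, the other way, from 12.8 to 21.7 for the bifunctional enzymes. Hk3, a hexokinase of blood cells, was lower in liver (5.86 to 3.37 CPM) and lung (6.82 to 4.27), and Hkdc1 reached 1 CPM in white adipose (0 to 1.06), kidney (3.30 and 2.29) and lung (10.1 and 12.6).

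**Figure D3:**
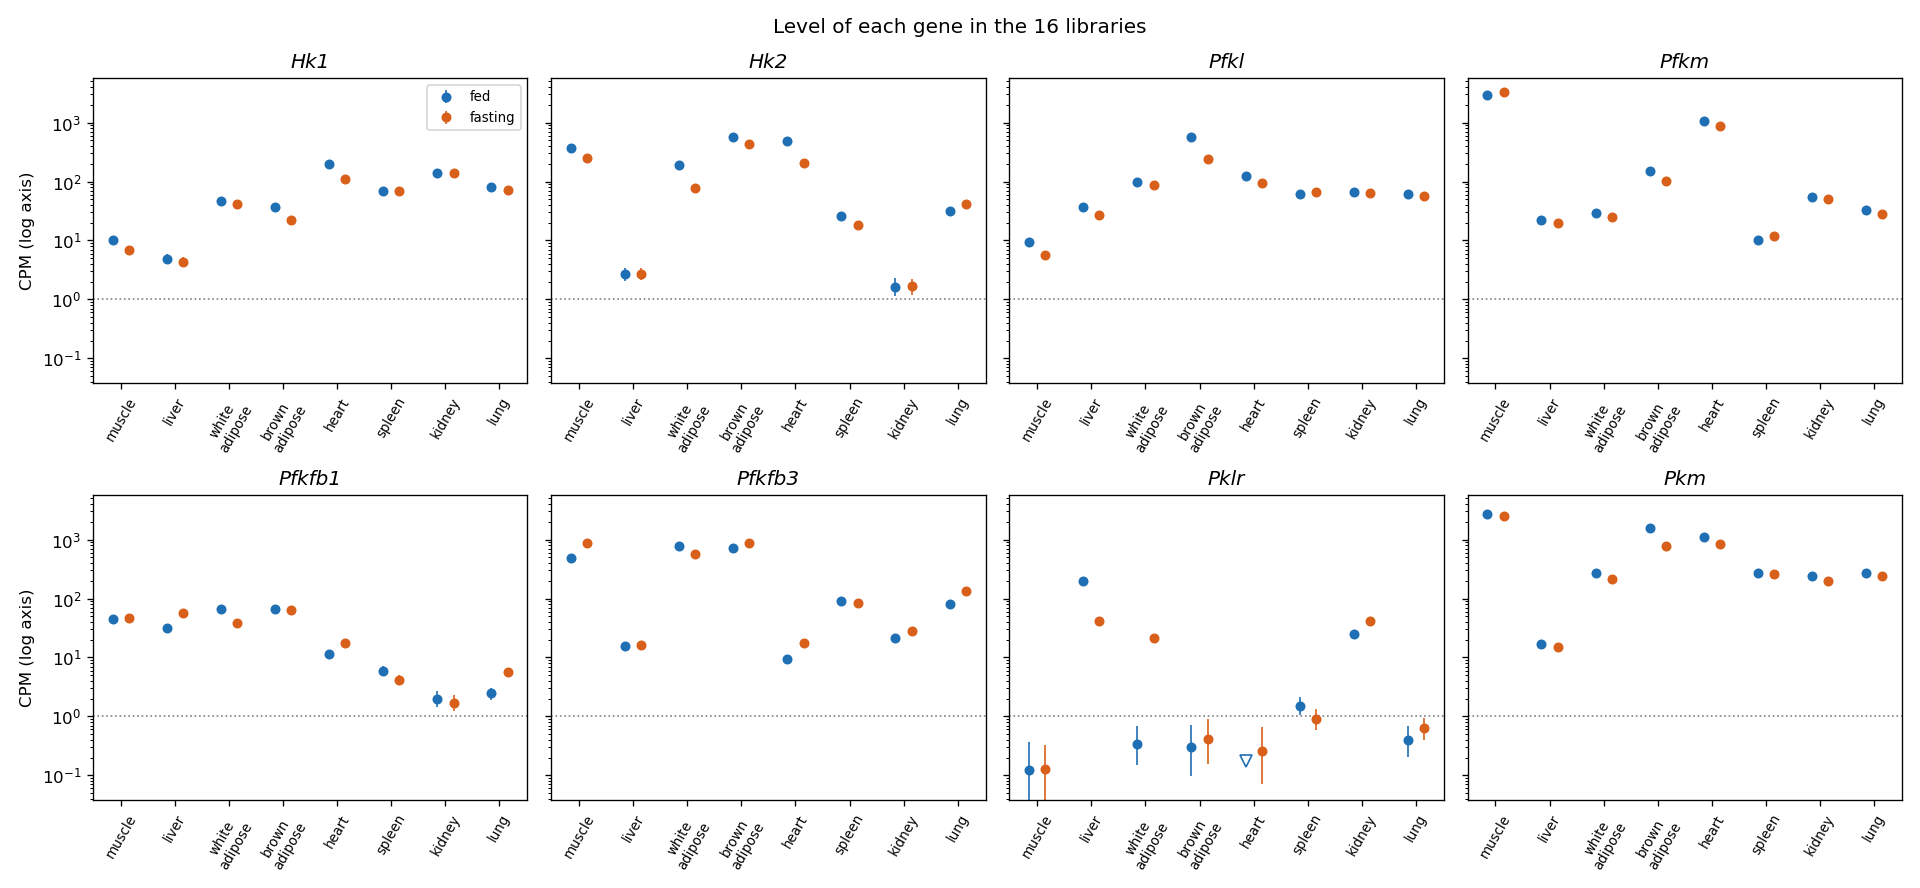
CPM on library totals (log axis) of the 8 genes in each tissue, fed in blue and fasting in orange, with 95% Poisson counting intervals, mostly smaller than the points. The dotted line marks 1 CPM; the open triangle marks 0 Pklr counts in fed heart, drawn at 3 counts (0.174 CPM), and Pklr is the 1 gene of the 8 that lies under 1 CPM in 4 tissues.

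At the phosphofructokinase step most of the RNA in muscle and heart was Pfkm (ENSMUSG00000033065.14, chr15:98092589-98132451, plus strand). It held 99.7% of the 3-gene family in fed muscle and 92.7% in fed heart per kb, and 99.3% and 83.5% by counts. Pfkl (ENSMUSG00000020277.10, chr10:77986947-78010083, minus strand) led in fed brown adipose with 59.6% and in fed white adipose with 45.4% per kb, where by counts Pfkp led with 48.4% against 39.8%. In fed liver the muscle type was slightly ahead of the liver type: Pfkm held 53.1% and Pfkl 43.7% per kb, although by counts alone, without the length, Pfkl led. Spleen, kidney and lung were mixed, with Pfkp, the platelet type, at 44.6%, 18.0% and 26.5% of the fed libraries per kb, and by counts Pfkp led in all 3.

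Pfkl showed its largest difference in brown adipose, where it is highest. It went there from 564 to 243 CPM (-1.22, interval -1.27 to -1.16), 2.32-fold lower, and in muscle, where it is scarce, from 9.35 to 5.56 (-0.75, interval -1.04 to -0.46). Liver (36.9 to 26.5 CPM, -0.48) and heart (126 to 92.7, -0.44) came close to the threshold without passing it. White adipose (96.7 and 88.5), spleen (60.4 and 65.2), kidney (67.2 and 64.2) and lung (61.1 and 56.9) lay between -0.13 and 0.11. The 2 brown adipose libraries were above every other library in Pfkl, on library totals and with TMM scaling.

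Pfkm, which at 978 CPM per kb in fasting muscle had the highest level per length of the 8 genes, was nearly level in its main tissues: 2967 and 3267 CPM in muscle (0.14) and 1079 and 879 in heart (-0.30). Its 1 call was in brown adipose, from 153 to 102 CPM (-0.58, interval -0.67 to -0.48). The other tissues ranged from 54.6 and 51.0 CPM in kidney to 10.2 in fed spleen, with fold changes of -0.25 to 0.23. The fed brown adipose library also held more skeletal muscle RNA, with all 6 fast muscle markers lower in the fasting library and a summed level of 2388 against 1097 CPM (Myh4 1272 and 663, Acta1 415 and 153). The same markers summed to 134625 and 133467 CPM in muscle, where Pfkm stood at 2967 and Pkm at 2713 CPM in the fed library but Pfkl at 9.35 and Hk1 at 10.3, below their levels in brown adipose. The part of muscle RNA in the brown adipose values of Pfkm and Pkm was not tested. Together the phosphofructokinases of brown adipose went from 142 to 73.0 CPM per kb, with Pfkp at 155 and 79.5 CPM (-0.96, called).

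Among the bifunctional enzymes Pfkfb3 (ENSMUSG00000026773.19, chr2:11471433-11554077, minus strand) held most of the family in fed brown adipose (82.4%), white adipose (80.7%), muscle (72.4%) and spleen (51.7%). Pfkfb1 (ENSMUSG00000025271.13, chrX:150588229-150643878, plus strand) led in liver alone, with 61.1% fed and 64.0% fasting. In heart neither was the main form: Pfkfb2, the heart enzyme, held 72.2% when fed and 48.4% when fasting. In fed kidney and lung Pfkfb4 was marginally ahead, with 34.1% and 39.3% per kb, and Pfkfb3 led in both fasting libraries. By counts without the length Pfkfb3 led in the fed libraries of both as well, with 41.6% against 30.1% for Pfkfb4 in lung and, in kidney, 35.6% against 35.0% for Pfkfb2 and 26.1% for Pfkfb4.

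Pfkfb3 was the gene with higher calls only: it was higher in muscle, heart and lung and in no tissue called lower on library totals. In muscle it went from 480.1 to 866 CPM (0.85, interval 0.82 to 0.88), in lung from 81.0 to 134 (0.73, interval 0.65 to 0.80) and in heart, from a low level, from 9.41 to 17.4 (0.88, interval 0.60 to 1.18). Brown adipose (729 and 879 CPM, 0.27), kidney (21.7 and 27.6, 0.35), liver (15.9 and 16.5, 0.05) and spleen (92.1 and 84.1, -0.13) were not called. White adipose went the other way, from 789.5 to 571 CPM (-0.47), which TMM scaling took past the threshold at -0.57. In muscle Pfkfb4 was higher as well, from 54.3 to 85.6 CPM (0.66), and the family together went from 87.7 to 145 CPM per kb.

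Pfkfb1 differed in opposite directions between tissues. It was higher in the fasting library in liver, from 31.5 to 55.8 CPM (0.82, interval 0.69 to 0.96), in lung, from 2.46 to 5.68 (1.20, interval 0.82 to 1.61), and in heart, from 11.6 to 17.8 (0.62, interval 0.36 to 0.90). It was lower in white adipose, from 66.5 to 38.2 CPM (-0.80, interval -0.91 to -0.68), and in spleen, from 6.00 to 4.20 (-0.51, which a pseudocount of 1 or TMM scaling brings under the threshold). Muscle (45.4 and 47.2), brown adipose (65.7 and 64.6) and kidney (45 and 44 counts) were not called. In liver Pfkfb2 was higher together with Pfkfb1, from 18.1 to 39.1 CPM (1.11), whereas in heart Pfkfb2 went from 105 to 50.8 (-1.05) and the Pfkfb1 share from 14.3% to 30.7%.

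In lung the fed library held more cardiomyocyte RNA (5 of 5 markers lower in the fasting library, summed level 968 to 483 CPM, Myh6 529 to 326 and Nppa 198 to 27.4). It also held more B cell RNA (5 of 5 lower, 343 to 177 CPM, Ighm 186 to 98.6 and Ms4a1 46.0 to 21.3). The adipocyte list went from 96.9 to 155 CPM with 3 of 5 called higher (Cfd 48.7 to 72.9, Fabp4 28.4 to 60.8). Plin1 (9.51 to 7.37 CPM) and Lep (0.932 to 0.360) were lower. In heart the adipocyte sum of 374 to 832 CPM was carried by Fabp4 (370.0 to 831), with Adipoq at 0.871 and 0.262 and Lep at 0 in both. All 5 hepatocyte markers were called higher in fasting heart, with a summed level of 23.5 to 84.9 CPM (log2 fold change 1.88 for Alb, to 51.4 CPM, and 1.58 for Apob, from 7.03 CPM). In liver the same markers summed to 95899.8 and 92529.9 CPM, where Pfkfb1 was at 31.5 and 55.8 CPM, and heart had Pfkfb1 at 11.6 and 17.8. Of 6 fast muscle markers 3 were called higher in fasting heart (Myh4 112 to 202 CPM, Tnnt3 21.3 to 36.4). The most abundant there, Ckm (1833 and 1703) and Acta1 (351 and 278), were slightly lower and not called. The sum was 2333 and 2241 CPM, and muscle had Pfkfb3 at 480.1 and 866 CPM. None of these was tested for its part in the values of Pfkfb1 and Pfkfb3 in lung and heart.

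Pyruvate kinase was divided most cleanly. Pkm (ENSMUSG00000032294.17, chr9:59656368-59679375, plus strand) held 85.8% or more of the fed libraries of every tissue but liver, and Pklr (ENSMUSG00000041237.12, chr3:89136142-89146784, plus strand) 94.8% of fed liver. The gene counts do not separate the M1 and M2 forms of Pkm or the liver and red cell forms of Pklr. Because Pklr has separate start sites for its liver and red cell forms and is a textbook target of the carbohydrate response element binding protein, encoded by Mlxipl, the 250 bases (from RefSeq) before its downstream RefSeq start site (GRCm38.p6, chr3:89136373-89136622, plus strand) are shown, with a match to the carbohydrate response element in capitals.

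Pklr downstream start: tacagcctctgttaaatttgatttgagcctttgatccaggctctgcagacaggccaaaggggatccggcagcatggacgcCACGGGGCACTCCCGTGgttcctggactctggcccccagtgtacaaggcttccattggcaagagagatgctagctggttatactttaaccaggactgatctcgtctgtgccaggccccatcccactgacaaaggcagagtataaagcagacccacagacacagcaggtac

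The pattern searched was CACGNG and CNCGTG separated by 5 bases, on both strands. The 17 bases in capitals lie at chr3:89136453-89136469, from 170 to 154 bases before the start site. Of 32851 RefSeq promoter windows of 300 bases (250 before to 50 after the start), 15 (0.0457%) held the pattern, and of 18 windows of the 8 genes this was the only one. The other Pklr window, upstream of it, had no match. The E-box CACGTG alone, which the pattern does not require, was found in 7.15% of all windows and in 2 of the 18, 1 each of Pfkfb3 and Pfkm. A match describes the letters in the window and no binding.

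Pklr gave the largest differences of the 8 genes, in opposite directions in liver and white adipose. In liver it went from 202 to 41.0 CPM (-2.30, interval -2.40 to -2.20), 4.93-fold lower. In kidney it was higher, from 25.3 to 41.5 CPM (0.71, interval 0.56 to 0.86, Fisher's exact p = 2.83e-22), so that fasting kidney and fasting liver were level on library totals, though not with TMM scaling (40.5 and 66.2). In white adipose it went from 0.343 CPM, 8 counts, to 21.5 CPM (5.93, interval 4.98 to 7.18, and 4.06 with a pseudocount of 1 CPM). In spleen it had 34 and 25 counts, which was not called (-0.73, interval -1.55 to 0.05), and in muscle, brown adipose, heart and lung it was under 1 CPM in both libraries, with 0 counts in fed heart, which allow up to 0.174 CPM. The share of Pklr in pyruvate kinase went from 94.8% to 80.7% in liver, from 14.2% to 24.4% in kidney and from 0.194% to 13.3% in white adipose.

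The fasting white adipose library held RNA of other cells that was scarce in the fed one. Of 5 markers of multiciliated epithelium all were higher, with sums of 9.32 and 565 CPM (Dnah5 3.26 and 195, Foxj1 1.76 and 126), and so were all 5 of epithelium, with 16.3 and 317 CPM (Krt8 8.54 and 106, Krt18 4.72 and 67.1). These lists were made after the values were seen. The kidney tubule list went from 67.2 to 747 CPM through Lrp2 (34.9 and 709.6), with Kap at 20.4 and 18.2. The hepatocyte sum was 116 and 109 CPM, the adipocyte sum 19356 and 16264, with 2 of 5 markers called lower (Plin1 2021 to 746, Lep 1142 to 263), and the B cell sum 346 and 82.7. Lung, with multiciliated sums of 529 and 567 CPM, had Pklr at 0.399 and 0.638 CPM, and kidney, with epithelium sums of 499 and 556 CPM, at 25.3 and 41.5. The part of these cells in the white adipose values, those of Pklr and Hkdc1 and the lower Hk2 and Pfkfb1 alike, was not tested.

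Pkm was called in brown adipose alone, from 1575 to 775 CPM (-1.02, interval -1.06 to -0.99), 2.03-fold lower. In the other tissues it was slightly under the fed value: 2713 and 2482 CPM in muscle, 1119 and 857 in heart, 276 and 243 in lung, 273 and 216 in white adipose, 267 in fed spleen (-0.06), 237 and 199 in kidney and 17.2 and 15.1 in liver, with fold changes of -0.38 to -0.06. Spleen, lung, white adipose and kidney could not be ranked against their neighbours, since the pairs of values overlapped, while muscle was above and liver below all others. In liver the Pkm share went from 5.22% to 19.3% beside a log2 fold change of its own level of -0.18 and of -2.30 for Pklr.

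All 8 genes differed between tissues in the edgeR quasi-likelihood test of the tissue terms over the 16 libraries, with adjusted p from 1.68e-10 for Pfkm to 5.00e-05 for Pklr, where 93.7% of the genes tested did. The highest tissue was heart for Hk1, brown adipose for Hk2, Pfkl, Pfkfb1 and Pfkfb3, muscle for Pfkm and Pkm and liver for Pklr. With TMM scaling muscle came first for Hk2, Pfkfb1 and Pfkfb3. Neighbours with overlapping values numbered 4 of 7 for Pfkfb1, Pfkfb3, Pklr and Pkm, 3 for Pfkl, 2 for Hk2 and 1 for Hk1 and Pfkm. The 4 tissues with Pfkfb1 between 43.6 and 65.1 mean CPM (brown adipose, white adipose, muscle and liver) overlapped each with the next.

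Across tissues no gene of the 8 passed the test of fasting against fed, in a model of tissue and treatment in which 1.03% of genes were called higher and 0.840% lower. Unadjusted p was under 0.05 for 4 of them, as for 18.6% of all genes tested, and 5 were under 0.05 by DESeq2, of which 0 passed after adjustment. The edgeR log2 fold changes were -0.46 ± 0.20 (SE, adjusted p = 0.239) for Hk2, -0.34 ± 0.13 (0.203) for Pfkl, -0.30 ± 0.11 (0.179) for Hk1 and -0.28 ± 0.12 (0.238) for Pkm. Pfkm was at -0.12 ± 0.11 and Pfkfb1 at 0.18 ± 0.22, and Pfkfb3 stood at 0.35 ± 0.17 (adjusted p = 0.284). Pklr, at 0.54 ± 0.80, depended on single tissues: it was 1.32 without liver, -0.42 without white adipose and -1.40 without the tissue term in the model. Other values moved as well: Pfkfb1 was 0.04 without lung, 0.06 without liver and 0.37 without white adipose, Pfkl -0.21, Pkm -0.18 and Pfkm -0.06 without brown adipose. Without the tissue term Pfkl was -0.68 and Pfkm 0.14. Without both adipose tissues Pfkfb1 was 0.45, Pfkl -0.20, Pkm -0.13, Pfkm -0.01 and Pklr -0.47, and the values of Hk1, Hk2 and Pfkfb3 were -0.22, -0.31 and 0.52.

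Isoform ratios did not turn in a common direction. The change of log2 Hk2 over Hk1 had a mean of -0.11 ± 0.55 (SD over 8 tissues), lower in 4 and higher in 4 tissues (exact sign-flip permutation test, two-sided, p = 0.656, adjusted over 3 pairs 0.656). Pfkm over Pfkl changed by 0.22 ± 0.37, higher in 5 of 8 tissues (exact permutation p = 0.148, adjusted 0.445), with 0.89 in muscle and 0.64 in brown adipose. Pfkfb3 over Pfkfb1 changed by 0.17 ± 0.53, higher in 6 of 8 (exact permutation p = 0.367, adjusted 0.551), and was lower in liver (-0.77) and lung (-0.48). The smallest p this test can give is 0.00781. Pkm over Pklr reached 1 CPM in both genes in 4 tissues and was not tested: its changes were 2.12 in liver, 0.67 in spleen, -0.96 in kidney and -6.27 in white adipose.

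**Figure D4:**
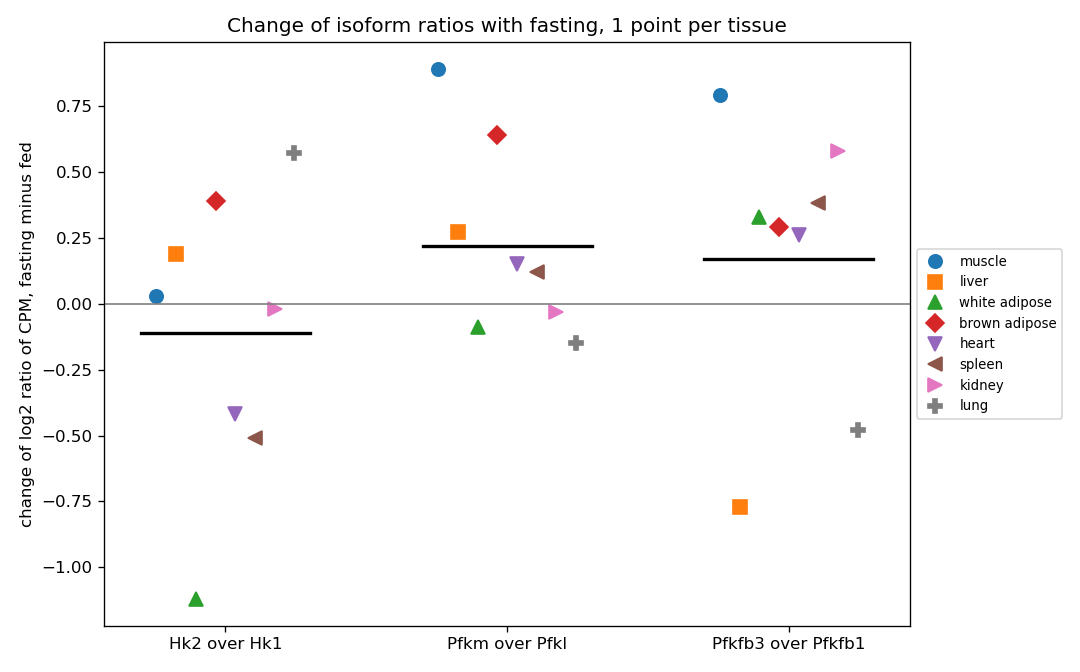
Change of the log2 ratio of CPM, fasting minus fed, for 3 isoform pairs, 1 symbol per tissue, with the mean as a black line. Each pair has tissues on both sides of 0, and the means are -0.11, 0.22 and 0.17.

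In liver the genes around the control layer were read against it, where 7.34% of all genes were called higher and 15.8% lower. Of the 5 enzymes that run the pathway backwards toward glucose, 4 reached 1 CPM and 3 were higher in the fasting library: Pck1, phosphoenolpyruvate carboxykinase, from 1066 to 4767 CPM (2.16), Pcx, pyruvate carboxylase, from 531 to 1025 (0.95) and Fbp1, fructose-1,6-bisphosphatase, from 625 to 1074 (0.78). G6pc, glucose-6-phosphatase, went from 420.1 to 487 (0.21, not called), and Fbp2 was under 1 CPM. Of 5 regulators, 3 were lower: Srebf1, a lipogenic factor that insulin induces, from 342 to 33.5 CPM (-3.35), Mlxipl from 318 to 124 (-1.35) and Myc from 8.99 to 4.93 (-0.87). Hnf4a, a hepatocyte nuclear factor, was higher, from 619.9 to 964 (0.64), and Hif1a (67.0 and 64.2) was not called. In white adipose and kidney, the other tissues with a Pklr call, that call was higher. Mlxipl was called lower in white adipose, from 106 to 60.1 CPM (-0.82), and stood at 124 and 126 in kidney (0.03). The part of Mlxipl in the Pklr values was not tested. Over all tissues the opposing enzymes had 16 higher and 1 lower call in 33 pairs at 1 CPM, and the 8 control genes 8 and 14 in 60. Among all genes the share called ran from 3.62% to 19.8% higher and from 2.33% to 16.4% lower, depending on the tissue. Of the 16, 4 were in white adipose, where the share of higher calls was 19.8%: Fbp1 (2.23 to 26.0 CPM), Fbp2 (1.16 to 21.9), G6pc (1.25 to 3.24) and Pck1 (1659 to 4019). The epithelial and multiciliated RNA of that fasting library, given above, was not tested for its part in them. In liver 4 of 6 pancreatic acinar markers were higher in the fasting library (sum 82.7 to 168 CPM, Pnlip 19.4 to 45.4 and Ctrb1 11.3 to 40.1), and their part in the liver values was not tested.

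**Figure D5:**
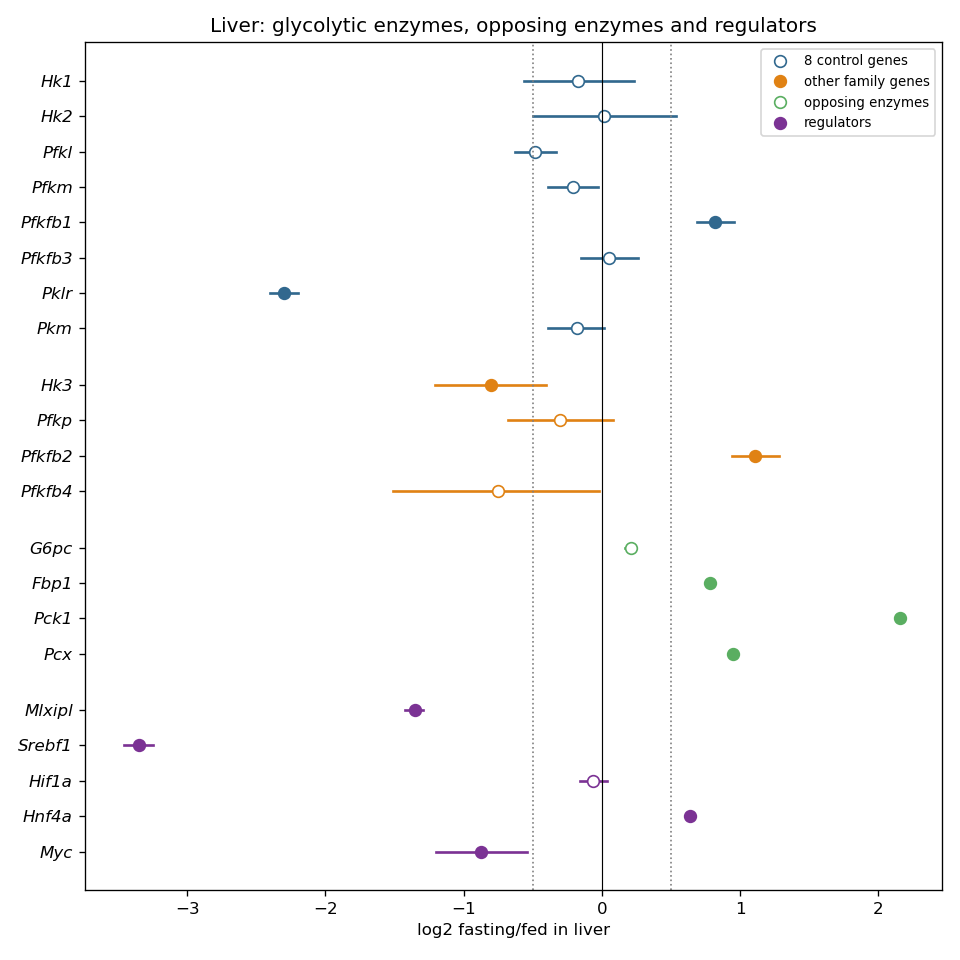
Log2 fold change in liver, fasting over fed, with 95% counting intervals, of the 8 control genes (blue), other genes of their families (orange), opposing enzymes (green) and regulators (purple); filled points were called. Pklr lies at -2.30 on the side of Srebf1 and Mlxipl, and Pfkfb1 and Pfkfb2 at 0.82 and 1.11 on that of Fbp1 and Pck1.

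The 15 other glycolysis genes gave 4 higher and 21 lower calls in 115 pairs at 1 CPM, to be read against the shares by tissue just given. In brown adipose 7 of 15 were lower and none higher, where 12.2% of all genes were lower, with a median of -0.54 beside -0.03 over all genes, among them Eno1, an enolase, from 1379 to 644 CPM (-1.10), Ldha, lactate dehydrogenase A, from 1003 to 692 (-0.54) and Pgam2, the muscle phosphoglycerate mutase, from 19.7 to 4.07 (-2.28). Aldoa, the aldolase of muscle, was at 2766 and 2183 there and not called. Pgam2 and Eno3 (63.6 to 31.4 CPM, -1.02) are at 1213 and 4333 CPM in fed muscle, and the fast muscle markers of brown adipose were lower too (6 of 6, 2388 to 1097 CPM). The part of muscle RNA in these values was not tested. In heart none of 14 was called, where 7.01% of all genes were called higher and 9.65% lower. In liver 2 of 14 were higher (7.34% of all genes) and 2 lower (15.8%): Ldha, from 447 to 913 CPM (1.03), and Aldoa, from 100.3 to 168 (0.74), were higher. Aldoc, from 13.1 to 7.21 CPM (-0.86), and Ldhb, from 2.34 to 1.32 (-0.82), were lower. Tigar, which breaks down fructose-2,6-bisphosphate, was lower in brown adipose (22.9 to 12.8 CPM, -0.84), kidney (10.1 to 5.86, -0.78) and white adipose (10.9 to 7.47, -0.54). In muscle 3 of 13 were lower, where 16.4% of all genes were: Pgam2, from 1213 to 714 CPM (-0.76), Ldhb, from 88.2 to 46.8 (-0.92), and Pgam1, named after its values were seen, from 4.19 to 2.75 (-0.61). Of the most abundant there, Aldoa (12150.5 and 12405), Eno3 (4333 and 3743), Ldha (1809 and 1416) and Tpi1 (1511 and 1223) were not called. In white adipose 5 of 15 were lower (9.23% of all genes), among them Tpi1, from 255 to 122 CPM (-1.06), and Aldoa, from 896 to 535 (-0.74), and 1 higher (19.8%), Aldoc, from 0.386 to 8.50 CPM. Of the heart transcripts at about 1000 CPM and above, Aldoa (2304 and 2354), Eno3 (1144 and 957) and Ldhb (1103 and 1050.2) were not called.

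Over the 16 libraries each gene was set beside all genes with at least 5 CPM in at least 2 libraries by Pearson's r of log2(CPM + 1), as a description, since the libraries share tissues and pools. The most similar were Syt11 (0.968) and Zfp784 (0.955) for Hk1, 6330403L08Rik (0.923) for Hk2, and Btf3l4 (0.938) and Swi5 (0.936) for Pfkl. For Pfkm they were Vdac3-ps1 (0.982) and Trdn (0.980), the latter a protein of the muscle calcium release complex. For Pfkfb1 they were Amy1 (0.868) and Steap4 (0.863), for Pfkfb3 Cib2 (0.934) and Phlda3 (0.934), for Pklr BC025446 (0.975) and Aadac (0.972), an enzyme of hepatocytes, and for Pkm Gm6560 (0.966) and Gyg (0.955), glycogenin. Among the 8 genes themselves r was highest for Hk2 and Pkm (0.81) and lowest for Hk2 and Pklr (-0.82).

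Sequence shared with other genes limits some of these counts. Of the 100-base windows of their transcripts in an older GENCODE release, at the read length used, none of Hk2, Pfkl, Pfkfb1 or Pfkfb3 occurred in another gene, on either strand, and 0.627% of Hk1. For Pklr 19.3% occurred in Hcn3, which overlaps it on the opposite strand and had 234 counts in all libraries against 8023 of Pklr. For Pkm 12.3% occurred in other genes, among them Gm49759 and Gm6560, its closest match in pattern above, and for Pfkm 7.43% in Gm26513.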

How the data were processed

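Short-read libraries of 8 tissues under 2 treatments were analysed from the deposited counts. The authors' strand-specific reads went through fastp 0.23.2 for trimming, FastQC 0.11.8 for quality and HISAT2 2.2.1.0 for alignment on GRCm38. Their gene counts came from featureCounts of Subread 2.0 and were deposited without normalization. The gene length beside them, an other value, was written by the authors' counting. The counted unit (read or pair) and the strand setting are not given in the sources used here.

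Symbols were matched by gene identifier without its version (55144 of 55385). Aldoa matched 2 rows, of which the one with more counts was used. Counts were divided by the library total (CPM), and the fold change was taken of CPM + 0.01, after the study's methods, with Fisher's exact test (two-sided), a log2 fold change over 0.5, an unadjusted p-value under 0.01 and 1 CPM in at least 1 library. Intervals cover counting error at 95%. A model of tissue and treatment was fitted to the 16 libraries in edgeR 4.0.16 under R 4.3.3, with TMM factors, filterByExpr on the design and the quasi-likelihood test (7 residual degrees of freedom, coefficient of variation 0.219), and p-values were adjusted by Benjamini-Hochberg, with calls under 0.05. DESeq2 1.42.0 was an alternative. Isoform ratios were tested by sign flips over the tissues, which are not independent animals. Fisher's test and the edgeR fit were tested on simulated data. Other steps used Python 3.11.15, scipy 1.17.1, numpy 2.4.6, pandas 2.3.3 and matplotlib 3.10.9. Promoter sequences are from RefSeq (GRCm38.p6).

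The genes, lists and tests were chosen with earlier results of these data known. Named were the 8 genes and their family members, the 4 other glycolysis genes called in most tissues and those over 1000 CPM. Opposing enzymes and regulators were named in liver, with some also in other tissues. The 2 genes most similar to each were named, and the 2 highest genes and some others of the marker lists that are discussed. Marker lists numbered 11, and 2 were added after the values were seen. A few genes of these lists are not reported here and were left out of the lists, shares and counts. Alternatives are given in the closing section. No sample column was left unused.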

Additional observations from a re-analysis of the deposited data

Results flagged for a closer look

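Both genes below were called higher in the fasting library of some tissues and lower in that of others. Each tissue has 1 library per treatment, and the difference between the tissues was not tested. The log2 fold change of Pklr was 5.93 in white adipose and 0.71 in kidney but -2.30 in liver. That of Pfkfb1 was 0.82 in liver, 0.62 in heart and 1.20 in lung but -0.80 in white adipose and -0.51 in spleen. The unequal amounts of epithelial RNA in white adipose, of cardiomyocyte RNA in lung and of pancreatic and erythroid RNA in spleen are given in the report beside these values, and their part was not tested.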

How the results depend on the processing

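Of 22 calls within tissues, none changed sign under any alternative, and 2, Pklr in liver and in white adipose, were kept under all of them. The 8 higher calls became 2 with a log2 fold change above 1, 2 when edgeR's exact test was given a coefficient of variation of 0.2 and 1 with 0.4. The 14 lower calls became 5, 4 and 1 under the same settings. With both adipose tissues left out of the count, a setting chosen after seeing the data, 7 higher and 8 lower calls remained. That setting only takes away the calls of those tissues and retests none. TMM scaling ended 2 calls, Hk2 in muscle and Pfkfb1 in spleen, and added Pfkfb3 in white adipose. Other pseudocounts, scalings, adjustment of p and the floor kept both counts within 1.5 times. Across tissues 0 of the 8 genes passed under the main and all alternative fits, including DESeq2 and a filter by treatment that was chosen after seeing the data, with a lowest adjusted p of 0.0857 (Pfkfb3 without white adipose). Leaving out 1 tissue at a time moved the mean ratio changes between -0.21 and 0.03 for Hk2 over Hk1, 0.13 and 0.28 for Pfkm over Pfkl and 0.09 and 0.31 for Pfkfb3 over Pfkfb1, none past the threshold. Pfkm led in 5 fed tissues, but in 2 by counts without the gene length, and Pfkl led in 2 fed and 4 fasting tissues. The cause of these shifts was not tested. No paired analysis was possible because, within a tissue, each group holds 1 library with no replicate number to pair; over tissues, fed and fasting were paired by the tissue term and in the ratio changes. Depth limits Pklr in tissues under 1 CPM and Hk2 in liver and kidney.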
